A study of Homo sapiens with 12 samples.

Results

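The 10 genes described here encode proteins of the intestinal mucous layer and of the epithelial cell surface: the mucins MUC1, MUC2, MUC5AC and MUC13, the trefoil factors TFF1, TFF2 and TFF3, and the adhesion molecules CEACAM1, CEACAM5 and CEACAM6. They were chosen by name, as gene families and by no rule on their values, but with earlier results of these data known. All 10 of them were found among the 19128 gene symbols of the gene table. RNA with poly-A tails was sequenced from HT-29, a human colorectal adenocarcinoma cell line, in 12 libraries of 2 experiments. The second experiment, which carries the tests, had 8 libraries: HT-29 cells transduced with a lentiviral shRNA against MLKL (shMLKL) after 5 h of TBZ or under DMSO, and cells with an shRNA against GFP (shGFP) after 5 h of TBZ or under DMSO, with 2 libraries in each group. TBZ is a mixture of 3 agents: the cytokine TNFα (20 ng/mL), BV6 (2 µM), which is an antagonist of IAP proteins, and the caspase blocker zVAD-fmk (30 µM). The mixture is used to drive necroptosis, and MLKL is the pseudokinase that carries out this form of death. The first experiment had 4 single libraries: shMLKL cells after 12 h of TBZ and under DMSO, and parental cells after 4 h of TBZ and under DMSO. Each shRNA is represented by 1 line. Whether replicate libraries were grown as separate cultures is not stated, and p-values therefore reflect the spread between libraries, possibly technical.

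Mucins are long glycoproteins whose repeated serine and threonine residues carry dense O-linked sugar chains. Some are secreted and form gels, such as MUC2, the main gel of the colon, and MUC5AC, which is typical of stomach and airway and appears in colorectal tumours. Others, such as MUC1 and MUC13, span the apical membrane. Trefoil factors are small, disulfide-rich peptides that are secreted together with mucins and take part in the repair of the mucosa. CEACAM proteins belong to the immunoglobulin superfamily. CEACAM1 spans the membrane and can carry inhibitory signalling motifs in its tail, while CEACAM5 (the carcinoembryonic antigen) and CEACAM6 are held by a lipid anchor.

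The target of the knockdown, MLKL, was at 0.651 and 0.395 FPKM (fragments scaled by transcript length and by sequenced fragments) in shMLKL cells under TBZ, 0.606 and 0.545 FPKM in shMLKL cells under DMSO, 1.98 and 2.03 FPKM in shGFP cells under TBZ and 3.95 and 3.89 FPKM in shGFP cells under DMSO. In the first experiment MLKL was at 2.15 FPKM (TBZ) and 0.854 FPKM (DMSO) in shMLKL cells, against 6.16 FPKM (TBZ) and 6.31 FPKM (DMSO) in parental cells. Read counts were not used here, and relative depth was estimated from ratios between libraries of FPKM values of at most 0.15. This estimate ran between 82.9% and 100% over the 8 libraries, with the deepest as 100%. Tests used limma on log2(FPKM + 1) over 10364 genes with a Benjamini-Hochberg adjusted p under 0.05 as the threshold, and every adjusted p below comes from that fit. The median log2 difference of all tested genes was 0.00 for TBZ against DMSO in shMLKL cells, -0.12 in shGFP cells, -0.16 for shMLKL against shGFP under DMSO and -0.06 under TBZ. Of the called genes, 53.2% were higher under TBZ in shMLKL cells (45.8% once library medians were set equal), 33.9% in shGFP cells (44.5%), 29.04% were higher in shMLKL than in shGFP cells under DMSO (53.1%) and 40.0% under TBZ (54.6%). Of the called differences between the TBZ effects of the lines, 65.6% were positive (38.9% with equal medians).

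Of 14 markers of colonic epithelium, 13 were tested, and their levels varied widely. Group means were 316 to 389 FPKM for EPCAM, 11.8 to 32.0 FPKM for PHGR1 and 5.92 to 20.3 FPKM for VIL1. CDH17, at 0.609 to 0.958 FPKM, was not tested. The epithelial keratin genes KRT8 and KRT18 were listed at 0 in 7 of the 8 libraries and at 694 and 535 FPKM in the other one, so a listed 0 in this table can be a failed estimate. Most goblet cell markers were low: of 11 genes, 3 passed the filter of 1 FPKM, ZG16 was listed at 0 in all 8 libraries, and the summed level, nearly all of it AGR2, was 135 to 150 FPKM in shMLKL cells under TBZ, 163 to 182 FPKM in shMLKL cells under DMSO, 83.2 to 90.3 FPKM in shGFP cells under TBZ and 114 to 115 FPKM in shGFP cells under DMSO. Of 6 gastric foveolar markers, 3 are themselves among the 10 genes, and GKN1 and GKN2 were listed at 0 in every library. Markers of absorptive enterocytes (10 genes) summed to at most 0.841 FPKM, those of enteroendocrine cells (6 genes) to at most 0.141 FPKM and those of fibroblasts and endothelium (10 genes) to at most 0.514 FPKM in any library. Leukocyte markers (10 genes) summed to 4.59 to 6.71 FPKM, of which CD68 gave 4.18 to 5.30 FPKM, and CD3E, CD3D, MS4A1 and NKG7 were listed at 0 throughout. CD14, a monocyte marker, reached 1.38 FPKM in 1 shGFP library under DMSO and averaged 0.151 FPKM under TBZ and 0.636 FPKM under DMSO in shMLKL cells, and 0.173 FPKM under TBZ and 1.10 FPKM under DMSO in shGFP cells. It was called lower under TBZ in both lines, but passed the filter only through the shGFP cells under DMSO, where it was highest, and its part in the results below was not tested. In such bulk samples fewer cells of a type and less RNA per cell cannot be told apart.

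The 10 genes differed widely in level (mean FPKM over the 8 libraries). MUC13 stood highest at 47.8 FPKM, above 90.4% of the tested genes, followed by CEACAM1 at 38.4 FPKM. MUC5AC was the third at 7.07 FPKM. TFF1 (2.44 FPKM), MUC1 (2.42 FPKM), CEACAM6 (2.06 FPKM), CEACAM5 (1.78 FPKM), MUC2 (1.57 FPKM) and TFF2 (1.42 FPKM) formed a low group whose ranges over the libraries overlapped from each neighbour to the next. The ranges of MUC13 and CEACAM1 overlapped as well, as did those of MUC5AC and TFF1. TFF3, the trefoil factor of intestinal goblet cells, came last: it was listed at 0 and 0.0795 FPKM in shMLKL cells under TBZ, at 0 in both shMLKL libraries under DMSO, at 0.206 and 0.138 FPKM in shGFP cells under TBZ and at 0.132 and 0.143 FPKM in shGFP cells under DMSO. TFF3 did not reach 1 FPKM in any group and was not tested, so 9 of the 10 genes were.

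**Figure D1:**
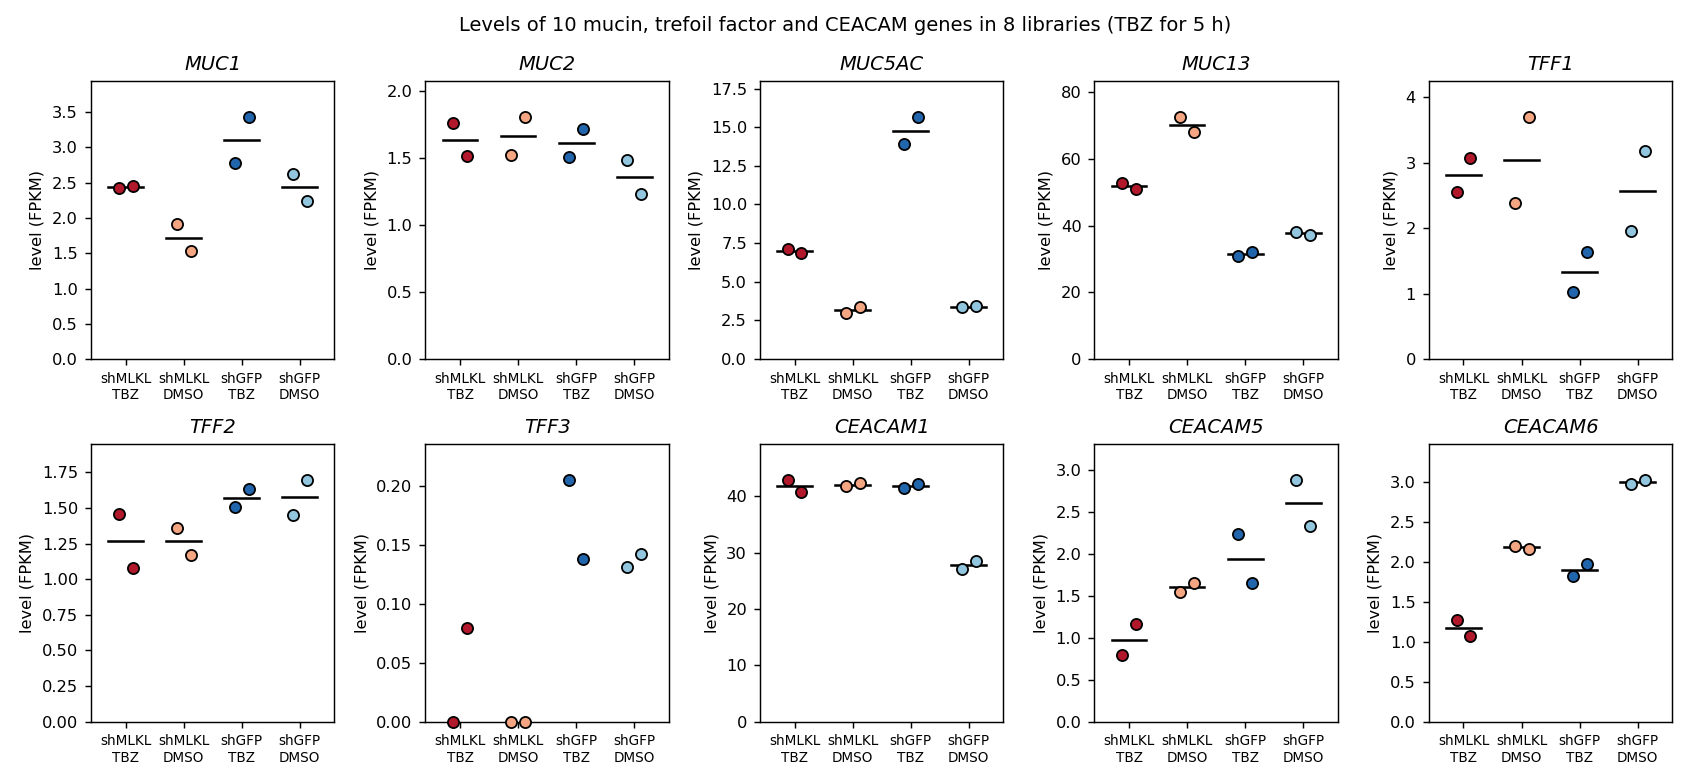
Level in FPKM (vertical axis, from 0, scaled per panel) of each of the 10 genes in the 8 libraries of the second experiment, with 1 point per library and a line at the group mean (no line for TFF3, which has listed zeros). MUC5AC is highest in the shGFP libraries under TBZ (13.9 and 15.6 FPKM), CEACAM1 is lowest in the shGFP libraries under DMSO (27.1 and 28.6 FPKM), and MUC13 is higher in every shMLKL library than in any shGFP library.

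Among the secreted mucins, MUC5AC rose under TBZ in both lines, and rose less in shMLKL cells. It was at 7.13 and 6.85 FPKM in shMLKL cells under TBZ, against 2.95 and 3.34 FPKM in shMLKL cells under DMSO. In shGFP cells it was at 13.9 and 15.6 FPKM under TBZ, against 3.34 and 3.42 FPKM under DMSO. Both TBZ groups lay clear of their DMSO groups, and the DMSO libraries of the lines lay close together. The mean level was 2.22 times as high under TBZ as under DMSO in shMLKL cells and 4.37 times as high in shGFP cells. On the log2(FPKM + 1) scale the differences were 0.95 ± 0.08 (SE, adjusted p = 7.17e-05) in shMLKL cells and 1.85 ± 0.08 (adjusted p = 1.08e-06) in shGFP cells. The difference between these effects, shMLKL minus shGFP, was -0.90 ± 0.11 (adjusted p = 0.00152). Under DMSO the lines differed by -0.08 (95% interval -0.26 to 0.10, adjusted p = 0.376), and under TBZ MUC5AC was lower in shMLKL cells by -0.98 ± 0.08 (adjusted p = 5.25e-05).

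MUC2, the other gel-forming mucin, was low in every group and was not called in any comparison. It was at 1.76 and 1.51 FPKM in shMLKL cells under TBZ, 1.52 and 1.80 FPKM in shMLKL cells under DMSO, 1.51 and 1.71 FPKM in shGFP cells under TBZ and 1.49 and 1.23 FPKM in shGFP cells under DMSO. The libraries of shMLKL cells overlapped between TBZ and DMSO, and those of shGFP cells did not overlap but lay close. The log2 difference was -0.01 (95% interval -0.25 to 0.22, adjusted p = 0.93) in shMLKL cells and 0.15 (-0.09 to 0.38, adjusted p = 0.242) in shGFP cells, so a change of MUC2 of the size seen for MUC5AC lies outside both intervals. With quantile normalization the difference in shGFP cells passed the threshold (0.30, adjusted p = 0.0345). Between the lines under DMSO it was 0.17 (adjusted p = 0.164), with no overlap of the libraries, and it passed the threshold with library medians set equal (0.34, adjusted p = 0.0205) and with quantile normalization (0.43, adjusted p = 0.0082). Related gel-forming mucins were barely detected: MUC5B had group means of 0.0295 to 0.0659 FPKM and MUC6 of 0.136 to 0.184 FPKM, and neither was tested. Much of MUC2 and MUC5AC is repeated sequence, and how reads that map to several places were shared is not given in the sources used here.

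Of the membrane mucins, MUC13 fell under TBZ in both lines and was higher in shMLKL than in shGFP cells. It was at 52.9 and 51.0 FPKM in shMLKL cells under TBZ, against 72.4 and 68.0 FPKM in shMLKL cells under DMSO. In the shGFP line it was at 30.9 and 32.1 FPKM under TBZ, against 38.1 and 37.3 FPKM under DMSO. The 4 groups did not overlap. The mean level fell by 26.0% in shMLKL cells (log2 difference -0.43 ± 0.04 SE, adjusted p = 0.000242) and fell by 16.5% in shGFP cells (-0.25 ± 0.04, adjusted p = 0.00197). In shGFP cells the median log2 difference of all tested genes was -0.12, and MUC13 lay -0.13 beyond it. Whether part of the fall of MUC13 is a shift shared by most genes was not tested. The difference between the TBZ effects did not pass the threshold (-0.18 ± 0.06, adjusted p = 0.0777), but did with library medians set equal (-0.27, adjusted p = 0.0177). The shMLKL cells had 1.86 times the MUC13 level of shGFP cells under DMSO (log2 difference 0.88 ± 0.04, adjusted p = 4.99e-06) and 1.65 times under TBZ (0.70 ± 0.04, adjusted p = 1.87e-05).

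MUC1, which has a signalling tail and is shed from the surface by proteases, was far lower. It was at 2.42 and 2.46 FPKM in shMLKL cells under TBZ and 1.91 and 1.53 FPKM in shMLKL cells under DMSO. It was at 2.78 and 3.43 FPKM in shGFP cells under TBZ and 2.62 and 2.24 FPKM in shGFP cells under DMSO. TBZ libraries lay above DMSO libraries in each line. The difference passed the threshold in shMLKL cells (log2 difference 0.34 ± 0.11, adjusted p = 0.0446) and missed it in shGFP cells (0.25 ± 0.11, adjusted p = 0.0831). With library medians set equal this was the other way round, with adjusted p = 0.0528 in shMLKL and 0.0386 in shGFP cells, and the difference between the effects was 0.09 (95% interval -0.28 to 0.45, adjusted p = 0.717). The call in shMLKL cells was also lost without the filter (adjusted p = 0.0885) and without either shGFP DMSO library, either shMLKL TBZ library or shMLKL DMSO replicate 2, with adjusted p of 0.0395 to 0.208 over the 8 libraries left out in turn. MUC1 was lower in shMLKL than in shGFP cells under DMSO (-0.34 ± 0.11, adjusted p = 0.0292), which did not hold with equal medians (-0.17, adjusted p = 0.218), without the filter (adjusted p = 0.0593), without shGFP DMSO replicate 1 (adjusted p = 0.156) and without shMLKL DMSO replicate 2 (adjusted p = 0.161).

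The trefoil factors lie side by side on chromosome 21 (hg19 build, minus strand): TFF3 at 43731777 to 43735706, TFF2 at 43766467 to 43771208 and TFF1 at 43782391 to 43786644. TFF1, the partner of MUC5AC in gastric mucus, was at 2.55 and 3.07 FPKM in shMLKL cells under TBZ and 2.39 and 3.70 FPKM in shMLKL cells under DMSO. It was at 1.02 and 1.64 FPKM in shGFP cells under TBZ and 1.96 and 3.19 FPKM in shGFP cells under DMSO. The libraries of a group lay far apart, and the shMLKL groups overlapped while the shGFP groups did not. TFF1 fell in shGFP cells (log2 difference -0.61 ± 0.22, adjusted p = 0.0471), but not past the threshold with library medians set equal (-0.54, adjusted p = 0.072), without the filter (adjusted p = 0.0996), without shGFP DMSO replicate 2 (-0.36, adjusted p = 0.261) or without shGFP TBZ replicate 1 (-0.41, adjusted p = 0.239), and also missed it without shMLKL TBZ replicate 1 (0.0635) or 2 (0.0655). In shMLKL cells the difference was -0.07 (95% interval -0.58 to 0.45, adjusted p = 0.834), and the effects of the lines differed by 0.54 ± 0.31 (adjusted p = 0.245). Under TBZ, TFF1 was higher in shMLKL than in shGFP cells (0.72 ± 0.22, adjusted p = 0.0275), a call lost without the filter (adjusted p = 0.0666), without either shMLKL TBZ library (adjusted p = 0.0591 without replicate 1 and 0.129 without replicate 2) and without shGFP TBZ replicate 1 (adjusted p = 0.155).

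TFF2, a trefoil factor of gastric mucous neck cells, was not called in any of the 5 comparisons. It was at 1.46 and 1.08 FPKM in shMLKL cells under TBZ, 1.36 and 1.17 FPKM in shMLKL cells under DMSO, 1.51 and 1.64 FPKM in shGFP cells under TBZ and 1.45 and 1.70 FPKM in shGFP cells under DMSO. TBZ and DMSO libraries overlapped in both lines. The log2 difference under TBZ was 0.00 in each line, with 95% intervals of -0.25 to 0.25 in both. Between the lines the mean level was lower in shMLKL cells by 19.5% under TBZ and by 19.5% under DMSO, with no overlap of the libraries, but the log2 differences did not pass the threshold (-0.19, adjusted p = 0.181, and -0.18, adjusted p = 0.171), and that under DMSO turned to 0.07 with quantile normalization. Of 9 proposed trefoil partners and receptors, 3 were tested, and GKN1, GKN2 and ACKR3 were listed at 0 in all 8 libraries. EGFR, the growth factor receptor that trefoil factors are reported to engage, averaged 51.2 ± 1.82 FPKM under TBZ and 33.3 ± 2.12 FPKM under DMSO in shMLKL cells (SD, n = 2 each; log2 difference 0.61, adjusted p = 9.29e-05 from limma). The shGFP average was 46.6 ± 0.586 FPKM under TBZ and 18.1 ± 0.458 FPKM under DMSO (log2 difference 1.31, adjusted p = 7.68e-07 from limma). F2RL1, a protease-activated receptor, fell in shMLKL cells (30.8 ± 0.54 FPKM under TBZ and 41.2 ± 0.995 FPKM under DMSO, log2 difference -0.41, limma adjusted p = 0.000287) and rose in shGFP cells (22.7 ± 0.813 FPKM under TBZ and 18.6 ± 0.534 FPKM under DMSO, 0.27, limma adjusted p = 0.00132; SD, n = 2 each).

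**Figure D2:**
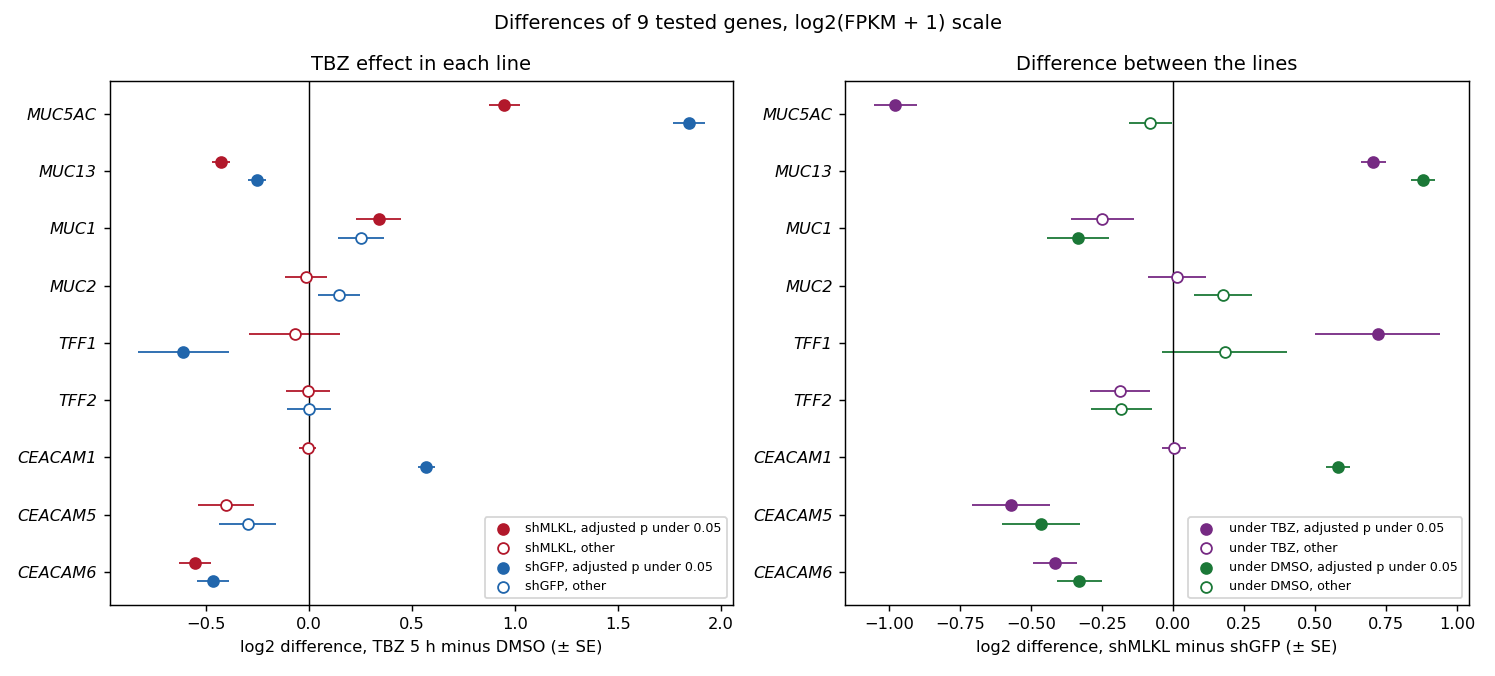
Log2 differences of the 9 tested genes on the log2(FPKM + 1) scale with their standard errors, for TBZ minus DMSO in each line (left) and for shMLKL minus shGFP under each condition (right). Filled points had an adjusted p under 0.05. MUC5AC rose in both lines, CEACAM1 rose in shGFP cells with -0.01 in shMLKL cells, and MUC13 and CEACAM6 fell in both.

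The CEACAM genes lie on chromosome 19 (hg19), CEACAM5 at 42212530 to 42234341 and CEACAM6 at 42259428 to 42276113 on the plus strand, and CEACAM1 at 43011458 to 43032661 on the minus strand. Their upstream sequences are shown because these close relatives had different calls under TBZ: CEACAM1 was called higher in shGFP cells, CEACAM6 lower in both lines and CEACAM5 in neither. The log2 differences of CEACAM5 were negative as well (-0.40 in shMLKL and -0.30 in shGFP cells), so CEACAM5 and CEACAM6 differed in calls and not in direction. Each run holds the 250 bases before the RefSeq start of the gene in GRCh38.p14, read 5′ to 3′ on the strand of the gene, with matches of 2 motifs in capitals: the NF-kB consensus and the AP-1 consensus TGANTCA, both searched on both strands.
CEACAM1: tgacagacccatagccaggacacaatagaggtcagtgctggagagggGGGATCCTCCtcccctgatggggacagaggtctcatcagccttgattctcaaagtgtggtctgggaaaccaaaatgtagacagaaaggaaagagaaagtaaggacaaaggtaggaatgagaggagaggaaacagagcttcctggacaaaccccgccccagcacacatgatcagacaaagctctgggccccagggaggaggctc
CEACAM5: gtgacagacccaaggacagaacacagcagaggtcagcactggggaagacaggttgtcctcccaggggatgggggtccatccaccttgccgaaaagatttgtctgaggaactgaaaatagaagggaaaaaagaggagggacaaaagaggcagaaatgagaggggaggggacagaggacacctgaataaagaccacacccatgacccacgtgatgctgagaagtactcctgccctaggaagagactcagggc
CEACAM6: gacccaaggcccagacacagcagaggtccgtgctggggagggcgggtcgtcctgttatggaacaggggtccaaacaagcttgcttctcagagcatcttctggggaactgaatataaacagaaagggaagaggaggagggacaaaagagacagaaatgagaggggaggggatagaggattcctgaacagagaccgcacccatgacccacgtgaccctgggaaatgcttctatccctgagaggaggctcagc
The CEACAM5 and CEACAM6 runs were identical at 73.6% of aligned positions, against 64.4% for CEACAM1 with CEACAM5 and 67.6% for CEACAM1 with CEACAM6. The run of CEACAM1 held 1 NF-kB match, from base -203 to base -194 before the start, and those of CEACAM5 and CEACAM6 held no match of either motif. Of all 35114 such RefSeq promoters, 9.96% held an NF-kB match and 6.57% an AP-1 match. AP-1 matches stood upstream of MUC13 (TGAGTCA, bases -178 to -172) and MUC2 (TGAATCA, bases -151 to -145), and MUC1 had none of either motif. Sequences were found for 6 of the 10 genes, and those of MUC5AC, TFF1, TFF2 and TFF3 were not used here. A match of letters is a description and not a binding site.

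CEACAM1 rose under TBZ in shGFP cells to the level that shMLKL cells had in either condition. It was at 42.9 and 40.8 FPKM in shMLKL cells under TBZ, against 41.8 and 42.3 FPKM in shMLKL cells under DMSO. In the shGFP line it was at 41.5 and 42.2 FPKM under TBZ, against 27.1 and 28.6 FPKM under DMSO. The shGFP libraries under DMSO thus lay apart from the other 6, which overlapped. In shGFP cells the mean level was 1.503 times as high under TBZ (log2 difference 0.57 ± 0.04, adjusted p = 2.47e-05). In shMLKL cells the difference was -0.01 (95% interval -0.10 to 0.09, adjusted p = 0.924), and the TBZ effects of the lines differed by -0.58 ± 0.06 (adjusted p = 0.000706). Under DMSO shMLKL cells had 1.51 times the level of shGFP cells (0.58 ± 0.04, adjusted p = 2.46e-05), while under TBZ the lines differed by 0.00 (95% interval -0.10 to 0.10, adjusted p = 0.987).

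CEACAM6 fell under TBZ in both lines. It was at 1.27 and 1.07 FPKM in shMLKL cells under TBZ, against 2.19 and 2.16 FPKM in shMLKL cells under DMSO. In the shGFP line it was at 1.82 and 1.98 FPKM under TBZ, against 2.97 and 3.02 FPKM under DMSO. The TBZ and DMSO libraries of a line did not overlap. The mean level fell by 46.3% in shMLKL cells (log2 difference -0.55 ± 0.08, adjusted p = 0.00125) and fell by 36.7% in shGFP cells (-0.46 ± 0.08, adjusted p = 0.00178), and the effects differed by -0.09 (95% interval -0.35 to 0.17, adjusted p = 0.592). CEACAM6 was lower in shMLKL than in shGFP cells under TBZ (-0.42 ± 0.08, adjusted p = 0.00331) and under DMSO (-0.33 ± 0.08, adjusted p = 0.00734), the last of these not with library medians set equal (-0.16, adjusted p = 0.11).

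CEACAM5 lay near CEACAM6 in level. It was at 0.795 and 1.16 FPKM in shMLKL cells under TBZ and 1.55 and 1.66 FPKM in shMLKL cells under DMSO, without overlap. The shGFP libraries had 2.23 and 1.65 FPKM under TBZ and 2.88 and 2.33 FPKM under DMSO, also without overlap. Neither TBZ difference passed the threshold, at -0.40 ± 0.14 on the log2 scale in shMLKL cells (adjusted p = 0.0532) and -0.30 ± 0.14 in shGFP cells (adjusted p = 0.0994), although that in shMLKL cells did with a pseudocount of 0.5 (adjusted p = 0.0473), with equal medians (adjusted p = 0.0444) and without 3 single libraries in turn. CEACAM5 was lower in shMLKL than in shGFP cells under TBZ (-0.57 ± 0.14, adjusted p = 0.0103; 0.0638 without shGFP replicate 1 and 0.0604 without shMLKL replicate 1) and under DMSO (-0.47 ± 0.14, adjusted p = 0.0188). The second of these calls was lost with equal medians (-0.30, adjusted p = 0.106) and without shGFP replicate 1 (adjusted p = 0.115), shMLKL replicate 1 (0.0807) or shMLKL replicate 2 (0.0551). The exons of CEACAM genes resemble each other, and how shared reads were counted is not given in the sources used here. Of 9 other CEACAM genes, only CEACAM19 was tested: it averaged 1.53 FPKM under TBZ and 0.766 FPKM under DMSO in shGFP cells, and 1.06 FPKM under TBZ and 0.753 FPKM under DMSO in shMLKL cells. It passed the filter only through the TBZ groups, where it was highest, so its call in shGFP cells (limma log2 difference 0.52) follows in part from the filter. CEACAM7, a gene of mature colonocytes, had group means of 0.0307 to 0.349 FPKM.

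Counted together, 4 of the 9 tested genes were called for TBZ in shMLKL cells, 2 higher (MUC5AC and MUC1) and 2 lower (MUC13 and CEACAM6), where 37.5% of all tested genes were called. In shGFP cells 5 were called, MUC5AC and CEACAM1 higher and MUC13, TFF1 and CEACAM6 lower, against 56.4% of all tested genes. The difference between the TBZ effects was called for 2, both negative (MUC5AC and CEACAM1), against 22.3% of all tested genes. Between the lines, 5 were called under DMSO against 63.1% of all tested genes, and 5 under TBZ against 51.7%. These shares are near the background, and the counts alone do not set the 9 genes apart in any of the 5 comparisons. The median log2 difference of the 9 genes was -0.01 in shMLKL and 0.00 in shGFP cells under TBZ, beside 0.00 and -0.12 for all genes. Their median size without regard to sign was 0.34 in shMLKL and 0.30 in shGFP cells, beside 0.16 and 0.24 for all tested genes. The TBZ comparisons of the lines share no libraries with each other, but all 5 comparisons share an estimate of spread over the 8 libraries. The comparisons between the lines also reuse the libraries of the TBZ comparisons.

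The counts of the lists that follow stand beside the 37.5% of all tested genes called in shMLKL cells and the 56.4% in shGFP cells, and no test sets any list apart from other genes. Among 13 other mucins, 4 were tested. MUC20, a membrane mucin with near copies in the genome that could split its reads, fell in both lines: it averaged 13.8 ± 1.45 FPKM under TBZ and 29.4 ± 0.283 FPKM under DMSO in shMLKL cells (log2 difference -1.04, limma adjusted p = 2.43e-05; SD, n = 2 each). In shGFP cells it averaged 9.40 ± 0.222 FPKM under TBZ and 13.9 ± 0.496 FPKM under DMSO (-0.52, limma adjusted p = 0.00051). MUC17, which neighbours MUC3A and MUC12 on chromosome 7, was the other called mucin, at low levels: 1.00 and 0.456 FPKM on average under TBZ and DMSO in shMLKL cells and 0.736 and 0.270 FPKM in shGFP cells. It passed the filter only through the shMLKL cells under TBZ, where it was highest, so its call as higher follows in part from the filter. MUC3A (0.492 to 1.01 FPKM over the group means) was not called, and MUC12 (0.0281 to 0.0563 FPKM) was not tested.

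Of 22 genes for goblet cell and mucus proteins, 7 passed the filter and were tested, and 2 were listed at 0 in all 8 libraries. SERPINA1, the alpha-1 antitrypsin gene, rose to 44.2 ± 1.25 FPKM under TBZ, against 15.7 ± 0.556 FPKM under DMSO, in shMLKL cells (log2 difference 1.44, limma adjusted p = 9.89e-07; SD, n = 2 each). In shGFP cells it was at 58.7 ± 2.94 FPKM under TBZ and 15.6 ± 0.275 FPKM under DMSO (1.85, limma adjusted p = 1.13e-07). AGR2, a disulfide isomerase needed to fold MUC2 in the mouse, fell to 139 ± 10.6 FPKM under TBZ, against 167 ± 13.1 FPKM under DMSO, in shMLKL cells (-0.26, limma adjusted p = 0.0234) and to 82.1 ± 4.86 FPKM, against 106 ± 1.86 FPKM, in shGFP cells (-0.36, limma adjusted p = 0.0037). Of this list 1 gene rose and 1 fell in shMLKL cells, and 1 rose and 4 fell in shGFP cells, SYTL2, LYZ and KLK1 among the last. KLK1 passed the filter only through the shGFP cells under DMSO, where it was highest. The list medians were -0.10 in shMLKL and -0.21 in shGFP cells, beside 0.00 and -0.12 for all tested genes.

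Of 20 regulators of the goblet lineage, 12 were tested: 7 fell and 3 rose in shMLKL cells, and 8 fell and 3 rose in shGFP cells, with median log2 differences of -0.30 and -0.44, beside 0.00 and -0.12 for all tested genes. Lower calls also outnumbered higher ones over all tested genes in shGFP cells, where 33.9% of the called genes were higher. SPDEF, the transcription factor that drives goblet cell maturation, fell to 1.35 FPKM under TBZ, against 3.77 FPKM under DMSO, in shMLKL cells (log2 difference -1.02, called by limma). In shGFP cells SPDEF fell to 1.97 ± 0.178 FPKM under TBZ, against 6.14 ± 0.657 FPKM under DMSO (-1.26, limma adjusted p = 1.51e-05; SD, n = 2 each). CREB3L1, a factor of the secretory pathway, fell to 3.12 ± 0.188 FPKM under TBZ, against 7.97 ± 0.0727 FPKM under DMSO, in shMLKL cells (-1.12, limma adjusted p = 2.38e-05), and to 2.30 ± 0.209 FPKM, against 8.32 ± 0.44 FPKM, in shGFP cells (-1.50, limma adjusted p = 2.6e-06). HNF4A, a regulator of the enterocyte programme, fell in both lines, to 2.86 ± 0.141 FPKM under TBZ, against 7.62 ± 0.13 FPKM under DMSO, in shGFP cells (-1.16). KLF4, which is needed for goblet cells in the mouse colon, rose to 18.5 ± 0.684 FPKM under TBZ, against 12.1 ± 0.801 FPKM under DMSO, in shMLKL cells (0.57, limma adjusted p = 0.000537), and to 19.3 ± 0.877 FPKM, against 7.74 ± 0.584 FPKM, in shGFP cells (1.21, limma adjusted p = 5.87e-06). HES1, the Notch target that represses the secretory fate, fell to 7.80 ± 0.208 FPKM under TBZ, against 12.3 ± 1.95 FPKM under DMSO, in shMLKL cells (-0.58, limma adjusted p = 0.00212), and it fell in shGFP cells as well (-0.32, called). FOXA1 fell in both lines. ATOH1, the master gene of the secretory lineage, had a group mean of at most 0.0678 FPKM.

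**Figure D3:**
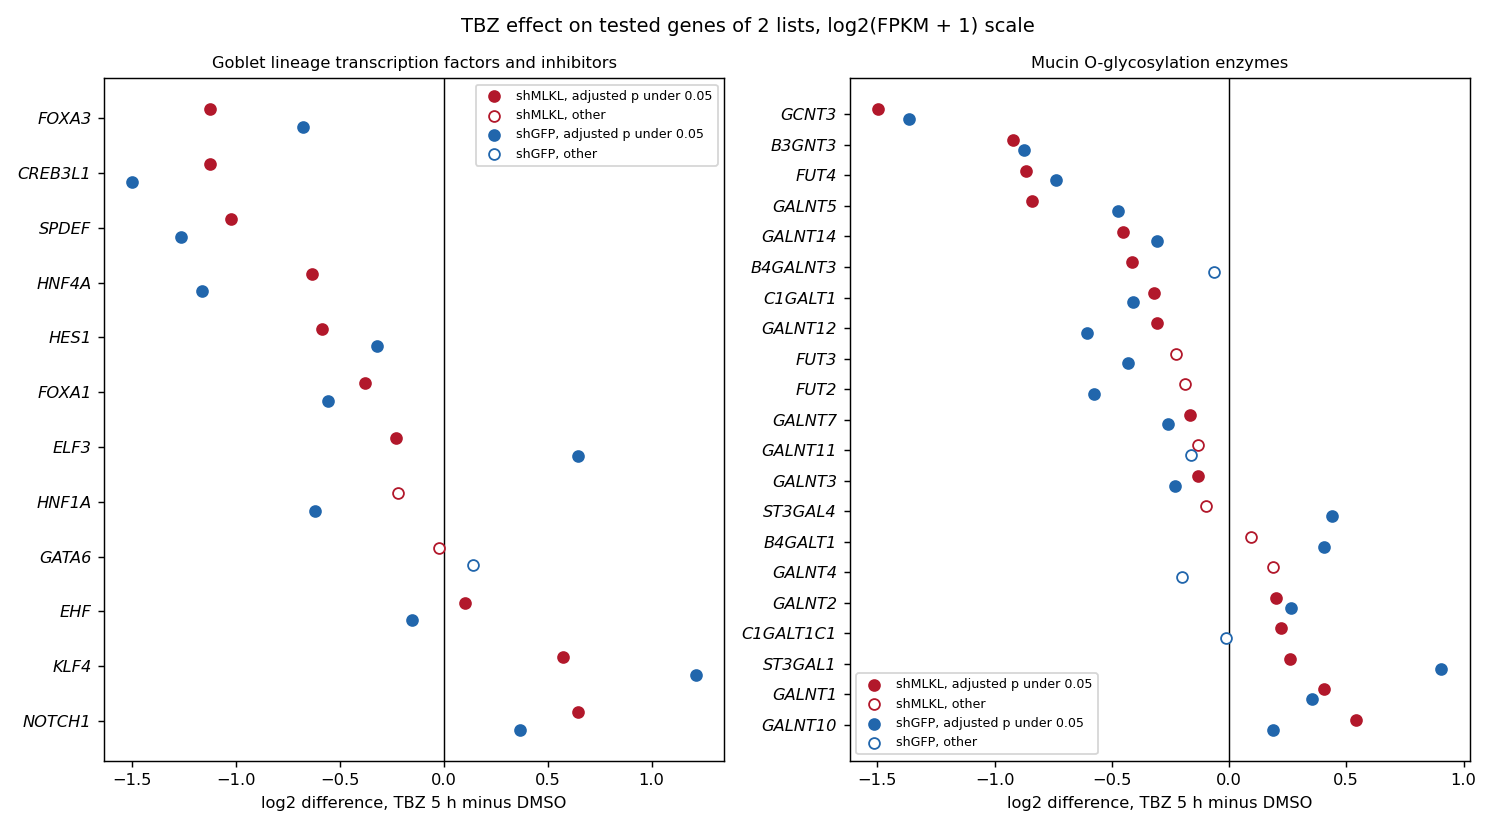
Log2 differences, TBZ minus DMSO, of the tested regulators of the goblet lineage (left) and of the tested enzymes of mucin O-glycosylation (right) in both lines, on the log2(FPKM + 1) scale. Filled points had an adjusted p under 0.05. CREB3L1, SPDEF and GCNT3 fell and KLF4 rose in both lines, while ELF3 lay on opposite sides of 0.

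Of 31 enzymes that build mucin sugar chains, 21 were tested: 5 rose and 10 fell in shMLKL cells (median -0.17), and 6 rose and 11 fell in shGFP cells (median -0.23), beside 0.00 and -0.12 for all tested genes. GCNT3, which branches the chains into core 2 and core 4, fell most, to 93.2 ± 2.84 FPKM under TBZ, against 265 ± 2.59 FPKM under DMSO, in shMLKL cells (log2 difference -1.50, limma adjusted p = 1.76e-07; SD, n = 2 each) and to 76.0 ± 1.82 FPKM, against 197 ± 3.70 FPKM, in shGFP cells (-1.37, limma adjusted p = 1.13e-07). B3GNT3, which extends core 1 chains, and FUT4, a fucosyltransferase, fell in both lines, with log2 differences of -0.92 and -0.87 in shMLKL cells and of -0.88 and -0.74 in shGFP cells. GALNT14, one of the enzymes that start the chains, fell in both lines too (-0.45 in shMLKL and -0.31 in shGFP cells). ST3GAL1, which caps core 1 chains with sialic acid, rose to 102 ± 1.34 FPKM under TBZ, against 54.0 ± 3.21 FPKM under DMSO, in shGFP cells (0.91, limma adjusted p = 2.88e-06), and rose in shMLKL cells (0.26).

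Of 16 signalling partners and sheddases of MUC1 and CEACAM1, 15 were tested, of which 7 rose and 3 fell in shMLKL cells and 7 rose and 2 fell in shGFP cells. The list medians were 0.10 in shMLKL and 0.13 in shGFP cells, beside 0.00 and -0.12 for all tested genes. CTNNB1, beta-catenin, which binds the tail of MUC1, rose to 73.6 ± 0.0288 FPKM under TBZ, against 42.2 ± 0.815 FPKM under DMSO, in shGFP cells (log2 difference 0.79, limma adjusted p = 1.11e-06; SD, n = 2 each), and rose in shMLKL cells (0.26, limma adjusted p = 0.000665). ADAM17, a protease that sheds MUC1, rose to 32.1 ± 0.095 FPKM, against 21.9 ± 0.952 FPKM, in shGFP cells (0.53, limma adjusted p = 0.000111), and rose in shMLKL cells (0.23, limma adjusted p = 0.0109). EZR, the membrane and actin linker ezrin, fell to 40.2 ± 0.887 FPKM under TBZ, against 62.3 ± 3.09 FPKM under DMSO, in shMLKL cells (-0.62, limma adjusted p = 0.000102) but rose to 79.5 ± 2.57 FPKM, against 53.6 ± 3.07 FPKM, in shGFP cells (0.56, limma adjusted p = 9.53e-05). SOS1, an exchange factor of the RAS pathway, rose in both lines. GSK3B also rose in both lines (log2 difference 0.53 in shMLKL and 0.53 in shGFP cells), and the kinase gene SRC fell in both (-0.41 in shMLKL and -0.19 in shGFP cells). PTPN6 and PTPN11, phosphatases recruited by the long tail of CEACAM1, averaged 4.08 and 53.8 FPKM in shMLKL cells under TBZ and 4.01 and 43.7 FPKM in shGFP cells under TBZ. Under DMSO they averaged 3.005 and 50.3 FPKM in shMLKL cells and 3.93 and 38.7 FPKM in shGFP cells. PTPN6 was called higher under TBZ in shMLKL cells (log2 difference 0.345, limma adjusted p = 0.00625) and not in shGFP cells (0.024). PTPN11 was called higher in shGFP cells (0.173, limma adjusted p = 0.00756) and not in shMLKL cells (0.095). The difference between the TBZ effects of the lines was called for neither gene. It was 0.321 for PTPN6 (limma adjusted p = 0.0519) and -0.078 for PTPN11 (limma adjusted p = 0.347).

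The first experiment allowed the transcripts of CEACAM1 to be told apart, in single libraries and without a test. Of 6 RefSeq transcripts, 2 had a level above 0. They differ by 1 exon of 53 bp, at chromosome 19, 43015728 to 43015780 (hg19, minus strand), which is present in NM_001712 and absent from NM_001024912. Including this exon gives CEACAM1 its long cytoplasmic tail with inhibitory motifs, and skipping it gives the short tail. The exon is shown in capitals with 12 bases of the exon on each side, from the GENCODE 29 transcript paired with NM_001712, where it is exon 7 of 9 (GRCh38, chr19:42511576-42511628, minus strand).
CEACAM1 exon 7: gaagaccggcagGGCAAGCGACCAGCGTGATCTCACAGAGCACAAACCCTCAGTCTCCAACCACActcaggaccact
The transcript with the exon was at 32.0 FPKM in shMLKL cells after 12 h of TBZ (deposited 95% interval 30.2 to 33.7), against 12.9 FPKM in shMLKL cells under DMSO (12.0 to 13.9). In parental cells it was at 28.0 FPKM after 4 h of TBZ (26.4 to 29.6), against 11.9 FPKM under DMSO (10.9 to 12.8). The transcript without the exon was at 39.1 FPKM with TBZ and 22.9 FPKM with DMSO in shMLKL cells, and at 39.4 FPKM with TBZ and 34.9 FPKM with DMSO in parental cells. The form with the exon thus made up 45.0% of both in shMLKL cells under TBZ and 36.1% under DMSO, and 41.5% in parental cells under TBZ and 25.4% under DMSO. Even with both levels at opposite ends of their intervals, the share stayed at 42.4 to 47.6% with TBZ and 33.0 to 39.3% with DMSO in shMLKL cells, and at 38.9 to 44.2% with TBZ and 22.9 to 28.0% with DMSO in parental cells. The intervals cover the error of estimation in a library and no spread between libraries.

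**Figure D4:**
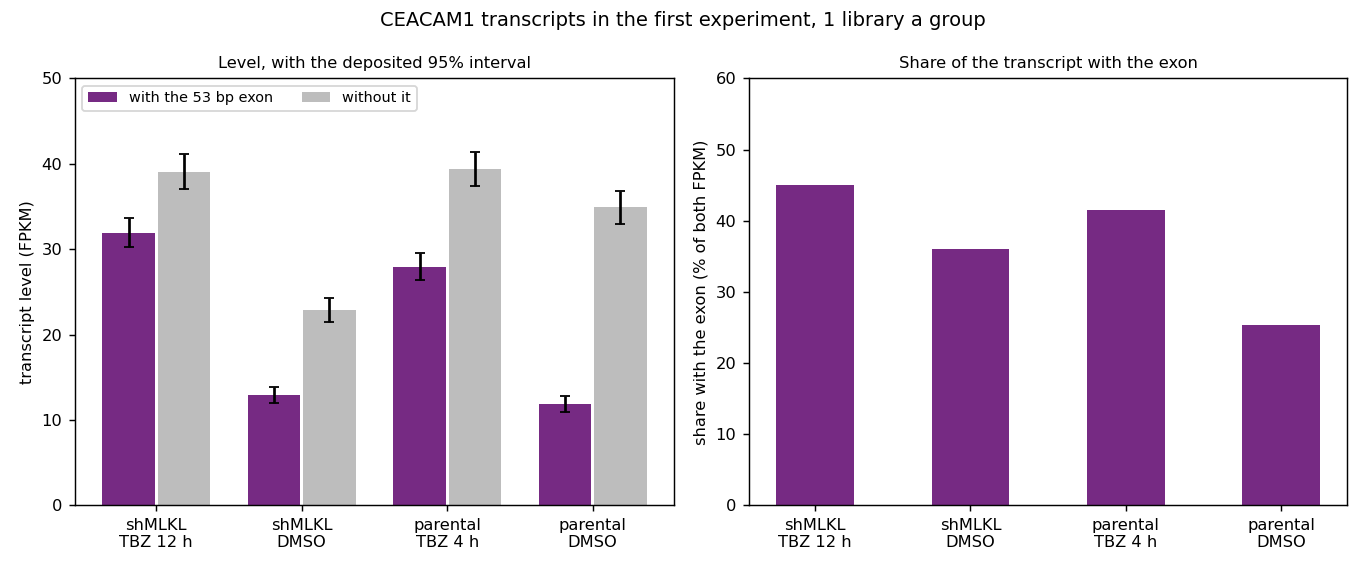
Level in FPKM of the 2 CEACAM1 transcripts in the 4 single libraries of the first experiment, with the deposited 95% intervals as bars (left), and the share of the transcript with the 53 bp exon in the sum of both (right). The share is 45.0 and 36.1% in shMLKL cells with TBZ and DMSO, and 41.5 and 25.4% in parental cells with TBZ and DMSO.

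The summed CEACAM1 level was 71.0 FPKM with TBZ and 35.8 FPKM with DMSO in shMLKL cells, a ratio of 1.98, and 67.4 FPKM with TBZ and 46.8 FPKM with DMSO in parental cells, a ratio of 1.44. After 12 h of TBZ the shMLKL library was therefore above its DMSO library, while the shMLKL libraries after 5 h in the second experiment were level with theirs. The times differ and the first values have no replicates, so no comparison was made.

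CEACAM5 and CEACAM6 stood differently between the lines in the 2 experiments. In the first, CEACAM6 was at 5.09 FPKM with TBZ and 9.26 FPKM with DMSO in shMLKL cells, against 1.496 FPKM with TBZ and 2.19 FPKM with DMSO in parental cells. CEACAM5 was at 7.83 FPKM with TBZ and 8.11 FPKM with DMSO in shMLKL cells, against 1.04 FPKM with TBZ and 2.12 FPKM with DMSO in parental cells. Both were thus higher in shMLKL cells than in the parental cells of the first experiment, and lower in shMLKL cells than in the shGFP cells of the second. CEACAM1 and MUC13, both higher in shMLKL than in shGFP cells under DMSO, were not higher than in parental cells under DMSO. There CEACAM1 was at 35.8 FPKM in shMLKL and 46.8 FPKM in parental cells. MUC13 was at 15.3 and 16.2 FPKM, with overlapping intervals. With TBZ, MUC13 was higher in shMLKL cells in both experiments. The lines set against shMLKL differ, and levels of the experiments come from separately made tables. Within each line the TBZ library had less CEACAM6 than the DMSO library, with a ratio of 0.550 in shMLKL and 0.682 in parental cells and no overlap of the deposited intervals.

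MUC13 was at 15.7 FPKM (14.7 to 16.6) with TBZ and 15.3 FPKM (14.3 to 16.3) with DMSO in shMLKL cells, and at 11.3 FPKM (10.4 to 12.1) with TBZ and 16.2 FPKM (15.4 to 17.0) with DMSO in parental cells. Its intervals overlapped in shMLKL cells and not in parental cells. TFF1 was at 6.90 FPKM with TBZ and 6.77 FPKM with DMSO in shMLKL cells and at 4.63 FPKM with TBZ and 4.79 FPKM with DMSO in parental cells, with overlapping intervals in each line. TFF2 was at 0.171 FPKM (0 to 0.342) with TBZ and 0.796 FPKM (0.399 to 1.19) with DMSO in shMLKL cells, without overlap, and at 0.857 FPKM with TBZ and 1.41 FPKM with DMSO in parental cells, with overlap. TFF3 was at 0.366 to 0.576 FPKM in the 4 libraries.

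The RefSeq transcript of MUC2 was at 0.705 FPKM with TBZ and 0.401 FPKM with DMSO in shMLKL cells, and was listed at 0 with TBZ and at 0.775 FPKM with DMSO in parental cells. In the parental TBZ library an assembled transcript over the same span and strand was listed at 1.28 FPKM, so fragments of this span were listed under that transcript. With assembled transcripts counted in, MUC2 was at 0.705 FPKM with TBZ and 0.481 FPKM with DMSO in shMLKL cells, and at 1.28 FPKM with TBZ and 0.775 FPKM with DMSO in parental cells. For MUC1, 2 of 20 RefSeq transcripts were above 0, which summed to 1.79 FPKM with TBZ and 2.59 FPKM with DMSO in shMLKL cells, and to 2.44 FPKM with TBZ and 2.49 FPKM with DMSO in parental cells. With assembled transcripts, MUC1 was at 2.63 and 4.43 FPKM with TBZ and DMSO in shMLKL cells, and at 3.55 and 4.07 FPKM in parental cells. Counted in this way, the ratio of TBZ to DMSO was 0.487 in place of 0.682 for CEACAM6 in parental cells. For CEACAM5 in shMLKL cells it was 0.856 in place of 0.966. MUC5AC had no matched transcript, so 9 of the 10 genes have values in the first experiment.

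Over the 8 libraries, the genes whose pattern was most like that of a member were looked up for members that spanned at least 1 on the log2(FPKM + 1) scale between group means, which only MUC5AC (1.93) and MUC13 (1.13) did. For MUC5AC they were EGR2 (Pearson r = 0.999) and ATP1B1 (r = 0.997), out of 1483 genes with such a span. EGR2, an immediate early transcription factor, averaged 1.30 FPKM with TBZ and 0.169 FPKM with DMSO in shMLKL cells, and 3.71 FPKM with TBZ and 0.174 FPKM with DMSO in shGFP cells. For MUC13 they were NNMT (r = 0.995) and ASPH (r = 0.993). NNMT, a methyltransferase of nicotinamide, averaged 44.1 FPKM with TBZ and 62.8 FPKM with DMSO in shMLKL cells, and 19.3 FPKM with TBZ and 25.2 FPKM with DMSO in shGFP cells. The 8 points fall into 4 groups, so these values of r mainly describe how the 4 groups are spaced and carry no test. The 1 added to FPKM shrinks the span of genes at low levels, such as CEACAM6 (0.883) and CEACAM5 (0.868), so the span does not rank relative change.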

How the data were processed

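The authors deposited FPKM values only, made per the submitters' processing notes with Cufflinks 2.2.1, TopHat2 2.0.13, GATK and STAR 2.4.0f1 on hg19, with no role stated. Libraries came from 100 nt paired-end reads of a stranded mRNA kit, per the labels' protocols. The gene table of the 8 libraries names no unit, and FPKM was taken from its values. The other deposited files, 1 per library of the first experiment, list transcripts with FPKM and its 95% interval. Where a symbol had several lines, the one highest on average stood for it, and the 10 genes have 1 line each. Genes with a group mean of at least 1 FPKM were tested with limma 3.58.1 in R 4.3.3 on log2(FPKM + 1), 4 groups, 5 contrasts, empirical Bayes with a trend and 4 residual degrees of freedom. The procedure was also run on simulated data. Their noise was independent and normal with the spread of this fit, as the model assumes, so that run cannot show whether the real spread is technical. Read counts were not used here, so count tests were not run. The depth is an estimate from low FPKM values, given only relative to the deepest library. In the first experiment RefSeq transcripts were summed per gene, and its intervals cover estimation error only. Named genes of the lists were the called genes with the largest log2 change (up to 4 a list and line) at 5 FPKM or more, together with a few fixed names; MUC17, KLK1, CEACAM19, ELF3, PTPN6, PTPN11 and marker genes such as CD14 are named outside this rule, after their values were seen. The members and lists were chosen with earlier results of these data known. Alternatives were other pseudocounts (0.1, 0.5), filters, scalings, no trend, a replicate block and leaving out each library.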

Additional observations from a re-analysis of the deposited data

Results flagged for a closer look

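The effect of TBZ on MUC5AC differed between the lines in the test of the difference itself: shMLKL minus shGFP was -0.90 on the log2 scale (limma, adjusted p = 0.00152), with both shMLKL libraries under TBZ at 7.13 and 6.85 FPKM and both shGFP libraries under TBZ at 13.9 and 15.6 FPKM. The effect on CEACAM1 differed by -0.58 (limma, adjusted p = 0.000706), where the shGFP libraries under DMSO stood apart from the other 6. Both calls held in all 18 fits, the reported one included. MLKL knockdown, the line and its transduction cannot be told apart in this design, which has 1 line per shRNA.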

How the results depend on the processing

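Of the 21 calls of the 9 tested genes, 14 held in every fit in which the gene could be tested: all 4 of MUC5AC, all 4 of MUC13, all 3 of CEACAM1 and 3 of the 4 of CEACAM6. The other 7 belong to MUC1, TFF1, CEACAM5 and CEACAM6, and the cause was not tested. A minimum of 5 FPKM left 3 genes to test, so the counts of called members became 2 in shMLKL and 3 in shGFP cells for TBZ, and 2 between the lines under DMSO and 2 under TBZ. With library medians set equal or quantile normalization 3 members, all higher, differed between the lines under DMSO in place of 5. Leaving out each library gave 3 to 5 called members for TBZ in shMLKL cells, 4 to 5 in shGFP cells, 2 for the difference of effects and 3 to 5 between the lines under DMSO and under TBZ, and 1327 to 1683 of all tested genes for the difference of effects, against 2306.

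Replicate numbers did not pair the libraries (correlations of -0.066 to 0.028 over 6 pairs of groups). With the replicate block, 3 members were called in shMLKL and 5 in shGFP cells, 3 for the difference of effects (TFF1 added, 0.54, adjusted p = 0.0381) and 5 in each comparison of the lines.

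Of 735 alternative values of tested genes, 657 kept direction and side of the threshold, 34 lost a call and 14 gained one. The sign turned in 30, and none of these was called in either fit. With equal medians and with quantile normalization these were MUC1 in the difference of effects (-0.006 and -0.050) and MUC5AC between the lines under DMSO (0.088 and 0.159), and with quantile normalization TFF2 between the lines under DMSO (0.068). The rest came from leaving out 1 library, with these ranges. In the difference of effects they were -0.029 to 0.201 for MUC1, -0.125 to 0.116 for TFF2 and -0.248 to 0.040 for CEACAM5. For TBZ in shMLKL cells they were -0.090 to 0.062 for MUC2, -0.305 to 0.166 for TFF1, -0.125 to 0.117 for TFF2 and -0.042 to 0.029 for CEACAM1, and in shGFP cells -0.068 to 0.069 for TFF2. Between the lines they were -0.070 to 0.432 for TFF1 under DMSO, and -0.054 to 0.080 for MUC2 and -0.035 to 0.037 for CEACAM1 under TBZ. Without the filter TFF3 had adjusted p = 0.0148 between the lines under DMSO (-0.19), on values that include listed zeros.

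In the first experiment, the log2 ratio of CEACAM1 moved beyond its intervals with the short-tail transcript alone (0.18 in parental and 0.77 in shMLKL cells) and in parental cells with equal medians (0.74), that of MUC13 in parental cells with equal medians (-0.32), and that of MUC1 in parental cells turned to 2.04 with 1 transcript alone. Counting assembled transcripts, an alternative chosen after seeing the data, turned the order for MUC2 in parental cells, which had 1.28 FPKM with TBZ and 0.775 FPKM with DMSO in place of 0 and 0.775 FPKM. The tests rest on 2 libraries a group, and the first experiment has 1 library a group.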

Other observations

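In the first experiment, where MUC5AC had no matched transcript, assembled transcripts without a gene name were listed on the plus strand of chromosome 11 between MUC2 and MUC5B (hg19). In the shMLKL library after 12 h of TBZ 1 transcript spanned 1212769 to 1222354 at 3.17 FPKM, and in the parental library after 4 h of TBZ 1 spanned 1212760 to 1222355 at 1.97 FPKM. In the DMSO libraries the same stretch was broken into 2 pieces in shMLKL cells (2.03 and 1.75 FPKM) and 4 pieces in parental cells (1.07 to 1.84 FPKM). These pieces cannot be added to a level of the whole, and no comparison was made.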
